A study of Mus musculus with 11 samples.

Results

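Old and young mouse hippocampus were compared in the 8 of 11 libraries that held little striatal RNA. The libraries were chosen by a measured value: those with Drd2 under 20 CPM (a counts-per-million value, here the raw count over the library total) were kept. Drd2 encodes the D2 dopamine receptor, which is abundant in projection neurons of the striatum, another forebrain region. All mice were female F1 hybrids of reciprocal crosses between the strains BL6 and CAST, with 1 polyadenylated, directional RNA-seq library per mouse. The 4 kept old mice were 101 to 104 weeks old, 3 with a BL6 mother and 1 with a CAST mother. The 4 kept young mice were 8 to 9 weeks old, 2 with each kind of mother. Old replicate 3 and young replicates 2 and 6 were left out, of which old replicate 3 and young replicate 2 had a CAST mother. The series asked how stable imprinting, X inactivation and DNA methylation are in the brain at old age. CAST is a wild-derived strain and differs from BL6 at enough sites to assign many reads to a parental copy. No other treatment or engineered allele is given for any group.

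Drd2 in the kept libraries was 1.67, 3.44, 2.49 and 2.08 CPM in old replicates 1, 2, 4 and 5, and 7.5, 1.2, 2.33 and 1.62 CPM in young replicates 1, 3, 4 and 5. The left-out libraries held 34.8 CPM in old replicate 3, 76.4 CPM in young replicate 2 and 64.1 CPM in young replicate 6. Young replicate 1 was thus the highest inside the limit and old replicate 3 the lowest outside it. Total counts ran from 122.6 to 214.8 M in kept libraries and from 111.1 to 170.3 M in left-out ones.

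The hippocampus holds pyramidal neurons in its CA fields and granule neurons in the dentate gyrus, where stem cells continue to make new neurons in young adult rodents. That neurogenesis declines with age. Microglia, the resident macrophages of the brain, and astrocytes take on reactive states in the aged brain, and the complement system, a cascade of serum and tissue proteins that tags cells and synapses for removal, is a known part of these states. In bulk tissue a lower level of a transcript in each cell and a smaller number of the cells that make it cannot be told apart, and this holds for every difference below.

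The kept libraries still differed in markers of regions and cell types. The 6 fixed markers of CA1 pyramidal neurons summed to 819 to 961 CPM in kept old libraries and to 448 to 813 CPM in kept young ones, so the age groups did not overlap. Young replicates 1 and 3 were low, at 501 and 448 CPM, while young replicates 4 and 5 had 780 and 813 CPM. Markers of excitatory neurons summed to 6683 to 7467 CPM in old and 3875 to 7113 CPM in young libraries. The 10 dentate granule cell markers summed to 578 to 743 CPM in old and 384 to 891 CPM in young libraries, so that defining markers of the labelled tissue were present in every library. Choroid plexus markers, which report secretory epithelium of the ventricles, ran from 30.0 to 1086 CPM in old and from 26.3 to 794 CPM in young libraries. Thalamic markers summed to 1044 CPM in young replicate 1, against 184 to 353 CPM in the other kept libraries. Over the 12 striatal markers the kept libraries held 212 to 287 CPM in old and 195 to 419 CPM in young mice, and the left-out libraries 1193 to 3465 CPM. The low CA1 markers of young replicates 1 and 3 move with age in these libraries, so many results below are also given without them. This alternative was chosen after the marker sums were seen and keeps only young replicates 4 and 5 beside the kept old libraries. Calls lost under it cannot be told apart from the effect of fewer young mice.

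**Figure D1:**
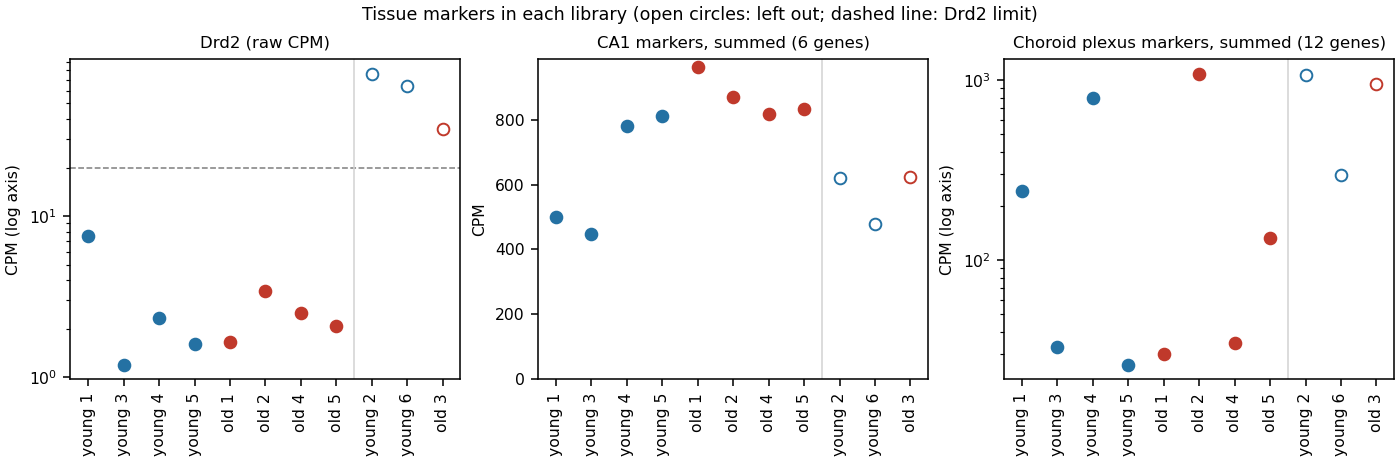
Drd2 (raw CPM, log axis), summed CA1 markers (TMM-scaled CPM) and summed choroid plexus markers (TMM-scaled CPM, log axis) in each library, with young in blue, old in red, and the 3 left-out libraries as open circles. Drd2 separates the left-out libraries by the rule, the CA1 sum is lower in young replicates 1 and 3 (501 and 448 CPM) than in any kept old library, and the choroid plexus sum spans 26.3 to 1086 CPM, with libraries of both ages near either end.

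With mother strain as a term, 15 of 30797 genes tested passed an adjusted p of 0.05 in edgeR, which is 0.0487% of all genes. Of these, 12 were higher in old mice (0.039% of genes tested) and 3 were lower (0.00974%). They include the complement genes C4b and C4a, the microglial genes Itgax and Mpeg1, the antiviral gene Zc3hav1, and, among those that fell, the neurogenesis gene Eomes and the oligodendrocyte precursor gene Gpr17. Fitted folds ran from 1.83 to 8.08. Values of old and young mice did not overlap for any of the 15, which is no separate support because the calls used the same values. Over all genes tested, 2.39% lay wholly higher in old mice and 2.14% wholly lower. The calls rest on few mice. Leaving out old replicate 4 or young replicate 4 left 0 genes called in edgeR, with 1184 and 4007 genes at a raw p under 0.05, and leaving out old replicate 1, 2 or 5 left 1 each, C4b. Without young replicate 3 there were 4 calls, and without young replicates 1 and 5 in turn 16 and 22. Without both young replicates 1 and 3 there were 9 calls, 4 of them among the 15 (C4b, Casr, Gm20649 and Onecut1), and with the CA1 marker sum as a term 1 call, which was none of the 15. DESeq2 called 224 genes, all 15 among them. A raw p under 0.05 was reached by 2066 genes, 6.71% of those tested, and the median log2 difference over all genes was -0.00.

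The 3 left-out libraries took no part in these calls and give the same measure in other mice. For 15 of the 15 called genes the left-out old library lay beyond both left-out young libraries in the direction of the call. The same was so for 49.7% of all genes tested, in the direction of their own fitted difference. With 1 left-out old mouse no test of age was made in these libraries. The 12 striatal markers summed to 1193 CPM in the left-out old library, against 3465 CPM in young replicate 2 and 2184 CPM in young replicate 6. Age and striatal content thus differ together there, and the part of striatal content in this order was not tested.

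**Figure D2:**
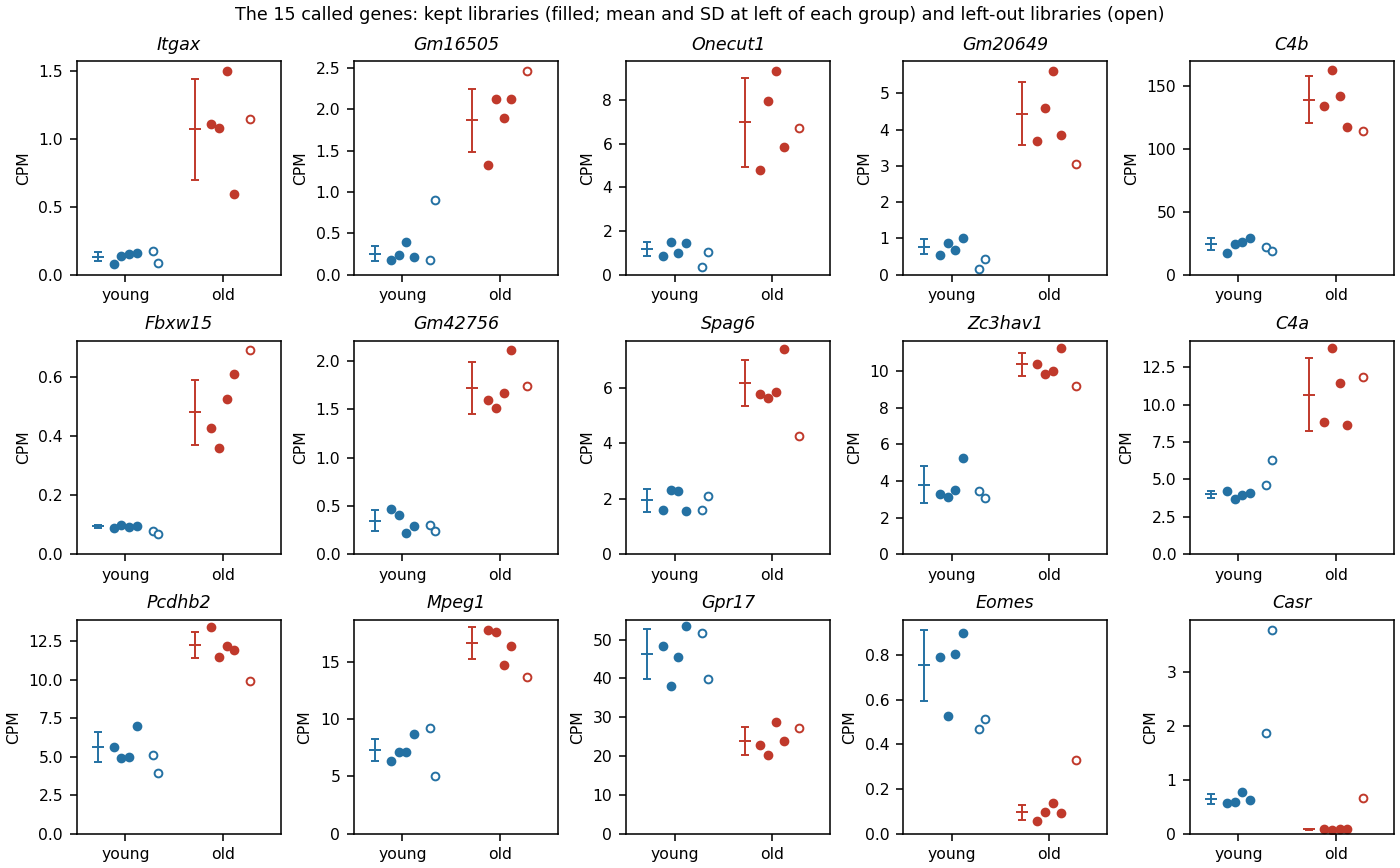
TMM-scaled CPM of the 15 called genes by age group. Filled points are the 8 kept libraries, the bar left of each group is their mean and SD (n = 4), and open points are the 3 left-out libraries, scaled together with all 11. Kept old and young libraries do not overlap in any panel, and Casr is the panel where the left-out libraries (0.668 CPM in the old mouse, 1.86 and 3.78 CPM in the young) sit farthest from the kept ones of the same age.

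Complement component 4 is a protein cleaved to deposit on marked surfaces in the classical and lectin pathways. It gives its name to 2 neighbouring mouse genes, C4b and C4a, and the counts of both rose. C4b is annotated as protein coding and C4a as a processed transcript, so the C4a values are not read as more of that protein. C4b (chromosome 17, 34728380 to 34743882, minus strand, GRCm38) measured 134, 162, 142 and 118 CPM in old replicates 1, 2, 4 and 5, and 17.3, 24.6, 25.8 and 28.8 CPM in young replicates 1, 3, 4 and 5. Its mean rose from 24.1 ± 4.90 CPM (SD, n = 4) to 139 ± 18.6 CPM (SD, n = 4), a fitted fold of 5.71 and a log2 change of 2.51 (SE 0.18, edgeR adjusted p = 0.00272). The lowest old library was far above the highest young one, and the left-out libraries measured 114 CPM in the old mouse against 22.1 and 19 CPM in the young. C4b was called without young replicates 1 and 3 as well (log2 change 2.37, edgeR adjusted p = 0.00572), but not without old replicate 4 (2.45, edgeR adjusted p = 0.155), without young replicate 4 (2.55, edgeR adjusted p = 0.0509) or with the CA1 marker sum as a term (2.23, edgeR adjusted p = 0.0582).

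C4a (chromosome 17, 34809092 to 34823464, minus strand) measured 8.81, 13.8, 11.4 and 8.62 CPM in old against 4.24, 3.72, 3.93 and 4.10 CPM in young mice, in the same order of replicates. Its log2 change was 1.45 with an SE of 0.19 (edgeR adjusted p = 0.0389), and without young replicates 1 and 3 the difference of 1.43 had an edgeR adjusted p of 0.378. Every kept old library lay above every young one, and old replicate 2 was the highest for both genes. Per length, in the authors' TPM, C4b stood at 55.3 and C4a at 3.89 in old mice.

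The genes lie 65210 bases apart and are close copies, so the sequence they share bears on how far their counts can be separated. Of the exons of their longest annotated transcripts, 30 pairs have the same length, 3 of these pairs are identical, and identity over all 30 is 96.17%. Of the windows of 100 bases in C4b transcripts, 15.23% also occur in C4a. The pair that differs most per base is exon 23 of each, 90 bases long, printed below 5′ to 3′ from the GENCODE M21 transcripts with capitals at the 10 differing bases, followed by exon 6, which is the same in both and in which reads cannot be assigned.
C4b exon 23 (chr17:34734701-34734790, minus strand, GRCm38): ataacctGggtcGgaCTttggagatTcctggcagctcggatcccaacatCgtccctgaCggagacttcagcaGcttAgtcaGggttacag
C4a exon 23 (chr17:34815347-34815436, minus strand, GRCm38): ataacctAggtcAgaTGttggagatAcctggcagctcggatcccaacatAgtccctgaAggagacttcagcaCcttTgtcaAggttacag
C4b exon 6 (chr17:34741988-34742070) and C4a exon 6 (chr17:34821566-34821648), both minus strand, GRCm38: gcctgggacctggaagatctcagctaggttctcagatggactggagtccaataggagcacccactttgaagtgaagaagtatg
How reads matching both genes were counted is not given in the sources used here, so the size of the C4a change is uncertain. C4b and C4a may therefore not be separate results.

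Of 18 complement genes tested, C4b and C4a rose and none fell in edgeR (DESeq2 also called Itgb2), with a list median of 0.44, against -0.00 over all genes. A further 5 members lay wholly higher in old mice, against 2.39% of all genes tested. For this list and those below, 2.14% of all genes lay wholly lower and 6.71% had a raw p under 0.05 in edgeR. DESeq2 called 224 of the 44961 genes to which it gave a p, 111 higher and 113 lower. The 44961 include any genes that its own filter left without an adjusted p. C1qa, a chain of the initiating C1q complex, measured 29.1 ± 2.64 CPM in old against 16.6 ± 4.05 CPM in young mice (SD, n = 4 each; edgeR adjusted p = 0.351). Itgb2, the beta chain of complement receptor 3, measured 5.11 ± 0.278 and 2.80 ± 0.597 CPM (edgeR adjusted p = 0.391). The median without young replicates 1 and 3 was 0.24, with C4b the 1 member called.

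Itgax encodes CD11c, an integrin of dendritic cells and of activated microglia, and had the largest fitted fold of the 15. It measured 1.11, 1.08, 1.5 and 0.594 CPM in old against 0.0821, 0.141, 0.153 and 0.159 CPM in young replicates, a log2 change of 3.01 (SE 0.36, edgeR adjusted p = 0.0358). Even old replicate 5, the lowest of the old, was far above the highest young value, and the left-out libraries measured 1.15 CPM in the old and 0.171 and 0.0855 CPM in the young mice. Mpeg1, a pore-forming protein of macrophages, measured 17.8, 17.6, 14.7 and 16.4 CPM in old against 6.38, 7.13, 7.09 and 8.69 CPM in young mice (log2 change 1.17, SE 0.15, edgeR adjusted p = 0.0389). Its old values were all above its young ones, with young replicate 5 the highest of the young. With young replicates 1 and 3 left out the differences were 2.86 for Itgax and 1.07 for Mpeg1, and neither passed (edgeR adjusted p = 0.206 and 0.352).

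Of 24 tested genes of the disease-associated state of microglia, Itgax rose and none fell in edgeR. DESeq2 called 6, all higher (Itgax, Clec7a, Gpnmb, Lyz2, Ccl6 and Trem2). The list median was 0.54, against -0.00 over all genes. A positive difference was found in 22 members, and 12 lay wholly higher in old mice (2.39% of all genes). Clec7a, a receptor for fungal glucans, measured 0.358 ± 0.0491 CPM in old against 0.0488 ± 0.0254 CPM in young mice (SD, n = 4 each; log2 difference 2.79, edgeR adjusted p = 0.0727). Gpnmb, a glycoprotein of phagocytes, measured 7.75 ± 1.59 and 2.51 ± 0.927 CPM (edgeR adjusted p = 0.197), and Lyz2, macrophage lysozyme, 7.57 ± 1.24 and 3.37 ± 0.856 CPM (edgeR adjusted p = 0.247). Igf1, a growth factor, was the member wholly lower in old mice, at a log2 difference of -0.44, and is named after its value was seen. Without young replicates 1 and 3 the list median was 0.43 and no member was called.

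None of the 12 homeostatic microglia genes passed in edgeR or DESeq2, though 8 had a raw p under 0.05 in edgeR (6.71% of all genes). All 12 had a positive difference, with a median of 0.45, and 6 lay wholly higher in old mice (2.39% of all genes). Csf1r, the receptor that microglia need to survive, measured 96.1 ± 2.54 CPM in old against 70.0 ± 15.4 CPM in young mice (SD, n = 4 each). Without young replicates 1 and 3 the median was 0.21. Among 25 lysosomal genes, 24 had a positive difference, the median was 0.22 and 7 lay wholly higher in old mice. None passed in edgeR, 6 had a raw p under 0.05, and DESeq2 called Ctss, the cathepsin of antigen-presenting cells, at 49.3 ± 7.12 CPM in old against 25.2 ± 3.74 CPM in young mice (edgeR log2 difference 0.94, adjusted p = 0.111). The lysosomal median without young replicates 1 and 3 was 0.10.

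Zc3hav1 encodes ZAP, an interferon-induced protein that binds viral RNA and targets it for decay. It measured 10.4, 9.85, 10.0 and 11.3 CPM in old against 3.3, 3.13, 3.52 and 5.28 CPM in young mice. The old values were close together, young replicate 5 was the highest of the young, and the log2 change was 1.5 with an SE of 0.20 (edgeR adjusted p = 0.0389). Of 29 interferon response genes tested, Zc3hav1 was the 1 that rose and none fell, in edgeR and in DESeq2. Their median was 0.12 and 4 lay wholly higher in old mice (2.39% of all genes). Beside Zc3hav1 these were Ifi27, Bst2 and Xaf1 with log2 differences of 0.55, 0.85 and 0.56. Leaving both low-CA1 young libraries out, Zc3hav1 differed by 1.31 (edgeR adjusted p = 0.344).

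None of 18 genes of MHC class I presentation passed in edgeR, while 10 had a raw p under 0.05 (6.71% of all genes). DESeq2 called H2-Q7 and H2-D1. The median was 0.53 and 6 lay wholly higher in old mice (2.39% of all genes). H2-D1, a class I heavy chain, measured 23.3 ± 1.92 CPM in old against 15.1 ± 1.74 CPM in young mice (SD, n = 4 each; edgeR adjusted p = 0.277), and Nlrc5, the activator of class I genes, 1.14 ± 0.468 and 0.495 ± 0.111 CPM (edgeR adjusted p = 0.538). Class I heavy chain genes are near-identical copies, so single members are uncertain. Of 9 class II genes none passed in edgeR, 2 had a raw p under 0.05 and the same number was called by DESeq2, Ctss and H2-DMb1. Their median was 0.41. The medians without young replicates 1 and 3 were 0.26 for class I and 0.25 for class II.

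Among 17 genes of reactive astrocytes C4b rose and none fell in edgeR, while DESeq2 called 4, all higher (C4b, Gfap, Aspg and Osmr). The median was 0.44 and 5 lay wholly higher in old mice (2.39% of all genes). Gfap, a filament protein that astrocytes make, measured 647 ± 87.9 CPM in old against 297 ± 89.4 CPM in young mice (SD, n = 4 each; log2 difference 1.12, SE 0.23, edgeR adjusted p = 0.277). Aspg, an asparaginase, and Osmr, the oncostatin M receptor, had log2 differences of 1.02 and 1.03 (edgeR adjusted p = 0.428 and 0.511). The 10 general astrocyte markers had a median difference of 0.05, with summed levels of 5768 to 8571 CPM in old and 5004 to 7742 CPM in young libraries. The reactive list had a median of 0.41 without young replicates 1 and 3.

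**Figure D3:**
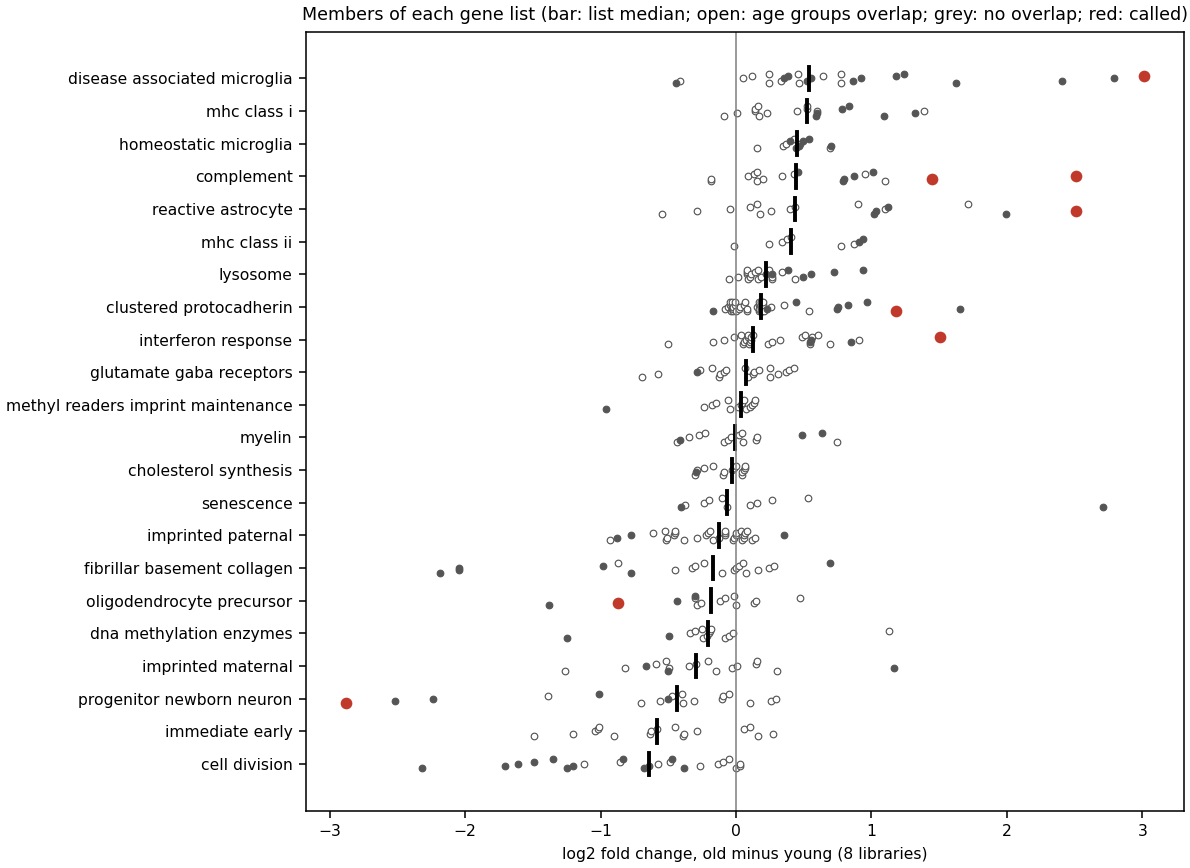
Log2 fold change (old minus young, 8 libraries) of each tested member of 22 gene lists, sorted by list median (black bar). Red points passed the test, grey filled points did not pass but did not overlap between the age groups, and open points overlapped. The disease-associated microglia list has a median of 0.54 and the cell division list a median of -0.64.

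Onecut1 encodes a transcription factor of liver and of developing neurons, and lies with the non-coding Gm20649 on the plus strand of chromosome 9 (74861921 to 74891781 and 74848463 to 74891476, GRCm38). Onecut1 measured 4.80, 7.93, 9.33 and 5.84 CPM in old against 0.836, 1.49, 0.976 and 1.44 CPM in young mice (log2 change 2.59, SE 0.28, edgeR adjusted p = 0.0217). Gm20649 measured 3.70, 4.59, 5.62 and 3.86 CPM in old against 0.552, 0.864, 0.670 and 1.02 CPM in young mice (log2 change 2.56, SE 0.25, edgeR adjusted p = 0.0179). For both, old replicate 4 was the highest and the old values were all above the young. The exons of these genes share 2171 bases on the same strand, 52.78% of Onecut1 and 79.23% of Gm20649, so they may not be separate results. Both were called without young replicates 1 and 3, at 2.68 and 2.54 on the log2 scale, each with an edgeR adjusted p of 0.0347.

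Fbxw15, an F-box gene, and Gm42756, annotated as antisense, adjoin each other on chromosome 9 (109552602 to 109568262, minus strand, and 109537100 to 109552780, plus strand) and share 168 exon bases on opposite strands. Fbxw15 measured 0.429, 0.360, 0.525 and 0.613 CPM in old against 0.0896, 0.0984, 0.0927 and 0.0944 CPM in young mice (log2 change 2.37, SE 0.30, edgeR adjusted p = 0.0389). Gm42756 measured 1.6, 1.51, 1.67 and 2.12 CPM in old against 0.470, 0.408, 0.223 and 0.288 CPM in young mice (log2 change 2.35, SE 0.31, edgeR adjusted p = 0.0389). Both were wholly higher in old mice, with old replicate 5 the highest. Since the strand setting of the counting is not given in the sources used here, reads of the shared stretch cannot be told apart. Without young replicates 1 and 3 neither passed (edgeR adjusted p = 0.356 for Fbxw15 and 0.0675 for Gm42756).

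Spag6 encodes a protein of the central pair of motile cilia (chromosome 2, 18694032 to 18750413, plus strand). It measured 5.78, 5.61, 5.85 and 7.40 CPM in old against 1.59, 2.31, 2.28 and 1.55 CPM in young mice (log2 change 1.61, SE 0.19, edgeR adjusted p = 0.0277). Its old values lay far above its young ones, with old replicate 5 apart from the others. The 10 markers of ependymal cells, the ciliated lining of the ventricles, summed to 70.3 to 100.3 CPM in old and 50.3 to 89.5 CPM in young libraries, with a median difference of 0.10 and 0 members past the test in edgeR, at a raw p under 0.05 or in DESeq2. The pseudogene Gm16505 (chromosome 13, 3358273 to 3363862, plus strand) measured 1.32, 2.13, 1.90 and 2.12 CPM in old against 0.179, 0.239, 0.392 and 0.209 CPM in young mice (log2 change 2.81, SE 0.30, edgeR adjusted p = 0.0217). Its old values were all above its young ones in the kept libraries, and the left-out young replicate 6 was higher than any kept young mouse, at 0.906 CPM. Neither gene passed without young replicates 1 and 3 (edgeR adjusted p = 0.207 for Spag6 and 0.206 for Gm16505).

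Pcdhb2 belongs to the clustered protocadherins, cell surface adhesion proteins of which single neurons express different subsets. It measured 13.4, 11.5, 12.2 and 11.9 CPM in old against 5.64, 4.93, 4.98 and 7.00 CPM in young mice (log2 change 1.18, SE 0.15, edgeR adjusted p = 0.0389). The groups were well apart, and no window of 100 bases of its transcript occurs in another gene. Of 57 protocadherins tested it was the 1 that rose in edgeR, while DESeq2 called 6, all higher (Pcdhb2, Pcdhb6, Pcdhb1, Pcdhb9, Pcdhb3 and Pcdhb8). A further 7 lay wholly higher in old mice, all of the beta cluster, and Pcdhb22 lay wholly lower (2.39% and 2.14% of all genes). Among the higher were Pcdhb6, Pcdhb9 and Pcdhb3 with differences of 0.97, 0.75 and 0.76 (edgeR adjusted p = 0.131, 0.247 and 0.277). The list median of 0.18 was -0.06 without young replicates 1 and 3, where Pcdhb2 differed by 1.1 (edgeR adjusted p = 0.386).

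Eomes, or Tbr2, is the transcription factor of intermediate progenitors between neural stem cells and newborn granule neurons, and it fell. It measured 0.0552, 0.0976, 0.137 and 0.0929 CPM in old against 0.791, 0.527, 0.807 and 0.899 CPM in young mice (log2 change -2.88, SE 0.32, edgeR adjusted p = 0.0217). The old values were all far below the young, and the left-out libraries were closer together, with 0.331 CPM in the old and 0.469 and 0.513 CPM in the young mice. The test of whether its age difference differs between kept and left-out libraries gave a raw p of 0.00383 and an adjusted p of 1 in edgeR. Without young replicates 1 and 3 the difference was -3.07 (edgeR adjusted p = 0.0511).

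Of 18 genes of progenitors and newborn neurons, Eomes fell and none rose in edgeR. DESeq2 called 4, all lower (Eomes, Draxin, Dcx and Tfap2c). The median was -0.43 and 5 lay wholly lower in old mice (2.14% of all genes). Draxin, a guidance protein, measured 0.314 ± 0.0147 CPM in old against 1.47 ± 0.545 CPM in young mice (SD, n = 4 each; edgeR adjusted p = 0.0618). Dcx, a microtubule protein of immature neurons on the move, measured 18.7, 13.5, 15.3 and 20.9 CPM in old against 25.2, 44.8, 31.7 and 29.2 CPM in young mice (log2 difference -1.01, SE 0.17, edgeR adjusted p = 0.138). Young replicate 3 was the highest for Dcx and the groups did not overlap. Without young replicates 1 and 3 the list median was -0.57 and Draxin was the 1 member called.

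None of 23 cell division genes passed in edgeR, while 12 had a raw p under 0.05 (6.71% of all genes). DESeq2 called 6, all lower in old mice. The list had the lowest median of the 22, -0.64, and 12 members lay wholly lower in old mice (2.14% of all genes). Aspm, a spindle protein of dividing progenitors, measured 0.631, 0.766, 0.662 and 0.520 CPM in old against 2.00, 1.92, 2.13 and 1.81 CPM in young mice (log2 difference -1.61, SE 0.22, edgeR adjusted p = 0.0523), with little spread in each group. Top2a, the topoisomerase of dividing cells, measured 0.557 ± 0.305 CPM in old against 2.76 ± 0.411 CPM in young mice (SD, n = 4 each; edgeR adjusted p = 0.130). Cenpf, a kinetochore protein, and Rrm2, a subunit of ribonucleotide reductase, differed by -1.35 and -1.2 (edgeR adjusted p = 0.197 and 0.251). The median without young replicates 1 and 3 was -0.66.

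Gpr17 is a receptor of oligodendrocyte precursors that have begun to differentiate. It measured 22.8, 20.3, 28.8 and 23.7 CPM in old against 48.4, 37.9, 45.4 and 53.4 CPM in young mice, a log2 change of -0.87 (SE 0.11, edgeR adjusted p = 0.0389). Its change was the smallest of the 15, the groups did not overlap, and the left-out libraries measured 27.2 CPM in the old and 51.6 and 39.9 CPM in the young mice. Of 14 precursor genes Gpr17 fell and none rose in edgeR (DESeq2 also called Bmp4). The list median was -0.19, and 4 members lay wholly lower in old mice (2.14% of all genes). Bmp4, a growth factor made at the same stage, measured 0.732 ± 0.231 CPM in old against 1.90 ± 0.211 CPM in young mice (SD, n = 4 each; edgeR adjusted p = 0.268). None of 16 myelin genes passed in edgeR and 6 had a raw p under 0.05 (6.71% of all genes). DESeq2 called Apod, and the myelin median was -0.01. Gpr17 differed by -0.97 without young replicates 1 and 3 (edgeR adjusted p = 0.121).

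Casr encodes the calcium-sensing receptor, a surface receptor best known from the parathyroid gland and also found on neurons. It was the 1 called gene that the fit of all 11 libraries does not call (edgeR adjusted p = 0.218 there). It measured 0.0858, 0.0675, 0.0791 and 0.0929 CPM in old against 0.575, 0.590, 0.774 and 0.621 CPM in young mice (log2 change -3.00, SE 0.29, edgeR adjusted p = 0.0178). The left-out old mouse had 0.668 CPM, as much as the kept young mice, and the left-out young mice had 1.86 and 3.78 CPM, so all 3 striatum-rich libraries were high for their age. The difference in the fit of all 11 was -2.90, and the test of a differing age effect gave a raw p of 0.0437 and an adjusted p of 1 in edgeR. Casr was called without young replicates 1 and 3 (log2 change -3.13, edgeR adjusted p = 0.0347).

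By the rule for named genes, 12 further genes with the smallest p are given, none of which passed in edgeR. DESeq2 called each of them, with adjusted p from 1.37e-11 (Aspm) to 0.00315 (Npnt). Beside Aspm, Ctss, Top2a, Pcdhb6, Dcx and Cenpf these are Col1a2, Sncaip, Cxadr, Col12a1, Npnt and Zfp57. The fibrillar collagen gene Col1a2 measured 3.84, 6.96, 4.36 and 6.65 CPM in old against 12.2, 17.0, 25.3 and 33.3 CPM in young mice (log2 difference -2.04, SE 0.34, edgeR adjusted p = 0.128). The groups did not overlap, but the young values spread widely and were highest in young replicate 5. Sncaip, the synuclein-binding protein synphilin, Cxadr, an adhesion protein of immature neurons, and Npnt, a matrix protein, differed by -0.93, -1.0 and -0.77 (edgeR adjusted p = 0.131, 0.138 and 0.195). Col12a1, a fibril-associated collagen, differed by -0.98 (edgeR adjusted p = 0.178), and here the left-out old mouse, at 8.10 CPM, lay between the left-out young mice, at 4.95 and 12.5 CPM.

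Of 20 collagen and basement membrane genes none passed in edgeR and 7 had a raw p under 0.05 (6.71% of all genes). DESeq2 called 4, all lower, and the median was -0.17. Col1a1 and Col3a1, which form fibrils with Col1a2, differed by -2.05 and -2.19 (edgeR adjusted p = 0.230 and 0.277). With young replicates 1 and 3 left out, 2 of the list were called lower, Col1a1 and Col1a2 (-2.45 for Col1a2, edgeR adjusted p = 0.0493), and the leptomeningeal median was -1.11. The 10 leptomeningeal fibroblast markers, which hold these 3 genes, had a median of -0.88 and summed to 63.2 to 147 CPM in old and 70.4 to 239 CPM in young libraries. The sum was highest in young replicate 5, as was that of pericyte and smooth muscle markers, 243 CPM there against 119 to 128 CPM in the other kept young libraries. The part of meningeal tissue in the collagen values was not tested. The 12 choroid plexus markers all had negative differences, with a median of -0.72, but 0 passed in edgeR, at a raw p under 0.05 or in DESeq2. Leaving out single libraries moved that median from -2.13 to 0.43.

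Of 14 enzymes of DNA methylation and demethylation none passed in edgeR and 3 had a raw p under 0.05 (6.71% of all genes). DESeq2 called Uhrf1. The median was -0.21, with 13 differences negative. Uhrf1, which brings the maintenance methyltransferase to copied DNA and is also in the cell division list, measured 0.677 ± 0.188 CPM in old against 1.59 ± 0.295 CPM in young mice (SD, n = 4 each; log2 difference -1.25, edgeR adjusted p = 0.331). Tet1, a dioxygenase that starts demethylation, measured 18.3 ± 1.80 CPM in old against 25.6 ± 2.72 CPM in young mice (log2 difference -0.50, edgeR adjusted p = 0.449). Both lay wholly lower in old mice. The maintenance enzyme Dnmt1 differed by -0.19, the de novo enzymes Dnmt3a and Dnmt3b by -0.24 and -0.21, and their cofactor Dnmt3l by 1.13. The dioxygenases Tet2 and Tet3 differed by -0.25 and -0.08, the glycosylases Tdg and Smug1 by -0.05 and -0.02, Uhrf2 by -0.18, and the stress proteins Gadd45a, Gadd45b and Gadd45g by -0.20, -0.34 and -0.30. The groups of these other 12 overlapped.

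Zfp57, a zinc-finger protein that keeps methylation at imprinted regions, measured 1.92, 2.27, 2.23 and 2.36 CPM in old against 4.33, 3.92, 4.49 and 4.51 CPM in young mice (log2 difference -0.96, SE 0.17, edgeR adjusted p = 0.197). The groups were narrow and did not overlap, and DESeq2 called it. None of the other 14 methyl-CpG readers and imprint maintenance genes tested passed in either tool, and the list median was 0.03. In total expression none of 33 paternally and 17 maternally expressed imprinted genes passed in edgeR or DESeq2. A raw p under 0.05 in edgeR was reached by 8 and 3 (6.71% of all genes), and medians were -0.13 and -0.29. Rian, a maternally expressed non-coding RNA, differed by -0.67, and Mkrn3, a paternally expressed ubiquitin ligase gene, by -0.88, and both lay wholly lower in old mice. The maternally expressed Slc22a18 (1.17, edgeR adjusted p = 0.514) and the paternally expressed Rasgrf1 (0.36, edgeR adjusted p = 0.692) lay wholly higher. With those young libraries left out (replicates 1 and 3), list medians were -0.14 for the methylation enzymes, -0.08 and -0.12 for paternally and maternally expressed genes, -0.77 for immediate early genes and -0.04 for myelin genes.

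Cdkn2a, a brake on division that is used as a sign of senescence, measured 0.399 ± 0.0274 CPM in old against 0.0599 ± 0.0243 CPM in young mice (SD, n = 4 each; log2 difference 2.71, SE 0.37, edgeR adjusted p = 0.0523). The other 10 senescence genes tested did not pass either, 1 of them reached a raw p under 0.05, DESeq2 called Cdkn2a, and the list median was -0.07. Of 17 immediate early genes, which neurons switch on with activity, none passed in edgeR and 5 had a raw p under 0.05 (6.71% of all genes). DESeq2 called Dusp1, a phosphatase. Their median was -0.58, but all 17 overlapped between the ages, and Fos ranged from 2.38 to 19.8 CPM in old and from 17.7 to 57.8 CPM in young mice. None of 15 cholesterol synthesis genes or 20 glutamate and GABA receptor genes passed in edgeR or DESeq2, with 2 and 3 at a raw p under 0.05 and medians of -0.03 and 0.08.

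The fit of all 11 libraries shares these 8, so its values are set beside them without a test of likeness. There 104 of 30568 genes passed, 0.34% of those tested, with 70 higher and 34 lower, and 3811 genes (12.5%) had a raw p under 0.05. The median SE of the log2 difference was 0.26 with 8 and 0.21 with 11 libraries, and residual degrees of freedom were 5 and 8. Of the 15 genes called with 8 libraries, 14 were called with 11. The difference of the CA1 markers had a median of 0.61 with 8 and 0.51 with 11 libraries. The striatal markers, which include Drd2, the gene of the rule, had medians of -0.19 and -1.46.

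Whether the age difference itself differs between kept and left-out libraries was tested as an interaction in all 11. Of 32633 genes tested 0 passed in edgeR, 0% of them, and 545 (1.67%) had a raw p under 0.05. DESeq2 called 4. The left-out side holds 1 old mouse, so the median SE of this term was 0.55. The 5 genes with the smallest p were Rasd2, Hcrt, Prl, Dmbt1 and Cnn1, each with an edgeR adjusted p of 1. Rasd2, a small GTPase of the striatum, measured 130 CPM in the left-out old mouse and 393 and 277 CPM in the left-out young mice, against 41.1 to 75.6 CPM in kept libraries. Hcrt, the hypothalamic peptide orexin, measured 2.42 CPM in the left-out old mouse and 0.0227 to 0.167 CPM in the other 10. The smooth muscle gene Cnn1 measured 7.81 CPM and the epithelial gene Dmbt1 0.480 CPM in that old mouse, above all other libraries. Prl, a pituitary hormone, measured 2.07 CPM there, but 1.44, 2.85 and 0.914 CPM in young replicates 3, 4 and 5.

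Reads assigned to a parental copy, which are a part of the same reads, were compared in the 8 libraries. For 11 of the 13 called genes with reads from both copies, each copy was separated by age without overlap. These genes were called on counts that include the allelic reads, so this is no separate support. The share of all genes with such a separation was not computed. The exceptions were Casr on the BL6 copy, with 3 reads in old and 21 in young mice, and Spag6 on both copies. Spag6 differed by 0.74 on each copy, against a fitted 1.61 in total counts. The copy values are log2 ratios of group means of reads over the library total, without TMM scaling or mother strain as a term. In old mice, allelic reads of Spag6 came to 0.248 CPM (BL6) and 0.239 CPM (CAST), against 6.16 CPM in total counts. C4b differed by 2.44 on the BL6 and 2.57 on the CAST copy, Itgax by 2.79 and 2.99, Zc3hav1 by 1.5 and 1.34, and Gpr17 by -1.13 and -0.98, all on the log2 scale. Fbxw15 and Gm42756 had 0 reads from the CAST copy at either age.

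The change of C4a was unequal between its copies. The BL6 copy differed by 1.97 and the CAST copy by 0.93, and the BL6 share of allelic reads was 26.7% in young and 43.3% in old mice. In the allelic fit the term for age on the BL6 copy was 1.02 with an SE of 0.15 (edgeR adjusted p = 0.00419), and it stayed called in all 7 fits that leave out 1 library. For C4b the BL6 share was 45.4% in young and 43.1% in old mice (edgeR adjusted p = 0.742 for that term). How reads of the shared C4 sequence entered the allelic counts is not given in the sources used here.

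Over 23916 autosomal genes, age differed between the BL6 and CAST copies in 22 (0.092%) and between the maternal and paternal copies in 13 (0.0544%) in edgeR. The smallest p values of the BL6 term belonged to Vti1b, Ide, Zfyve26, Nbr1 and Rdh11, with log2 terms of -1.08, 1.05, -0.97, -0.49 and -0.98. Those of the maternal term belonged to B230209E15Rik, Nbr1, Scarna10, Gm28967 and Ncapd2, with 4.45, -0.47, 0.48, 0.48 and 0.41. Vti1b, Rdh11 and Zfyve26 lie close together on chromosome 12 (79156017 to 79296304), so their BL6 terms may not be separate results. Scarna10 and Gm28967 lie within Ncapd2 and had the same value. Scarna10, Gm28967 and Ncapd2 also passed the BL6 term at nearly equal and opposite size (-0.50, -0.50 and -0.42), so that their allelic change with age sits in old replicate 4. Nbr1 passed both terms at nearly equal size and the same sign (-0.49 and -0.47). Its allelic change with age thus sits in the kept old mice of a BL6 mother, and strain and parent of origin are not told apart for it. Leaving out young replicate 1 or 5 gave 35 and 151 calls of the BL6 term, and leaving out young replicate 4 or 5 gave 8 and 20 of the maternal term. With old replicate 4 the only kept old mouse of a CAST mother, strain and parent of origin are separated in old mice by that library alone.

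**Figure D4:**
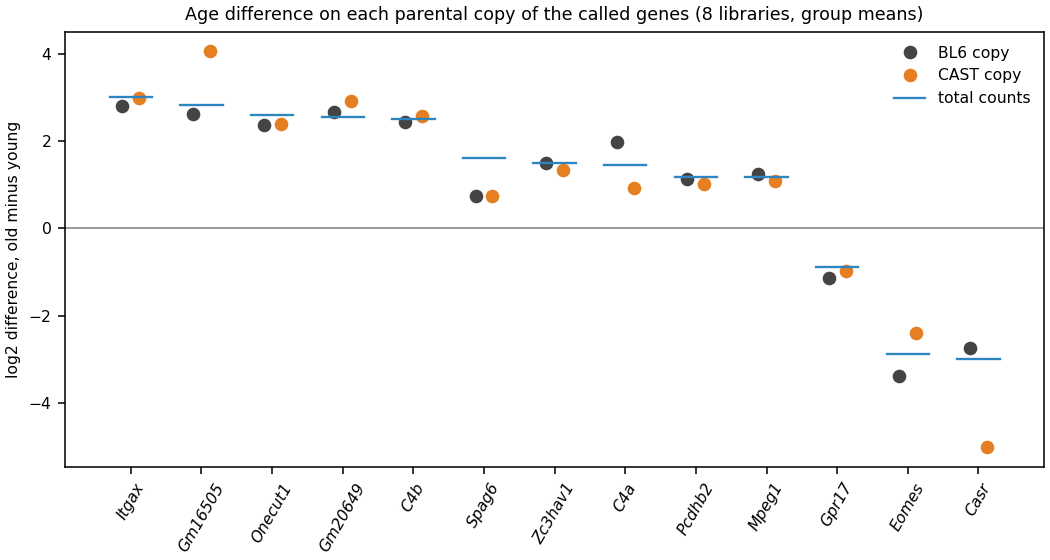
Log2 difference (old minus young) on the BL6 copy (grey) and the CAST copy (orange) of the 13 called genes with reads from both copies. Copy values compare group means of reads over the library total in the 8 libraries. The blue line is the fitted edgeR difference in total counts, TMM-scaled with mother strain as a term. Both copies lie on the same side of 0 for each gene, C4a has 1.97 on the BL6 and 0.93 on the CAST copy, and Casr and Eomes rest on few allelic reads.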

How the data were processed

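Libraries, gene lists and alternatives were chosen with earlier results of these data known. The deposited count table holds raw read counts per gene, and the authors' TPM table gives length-scaled values. Per the submitters' processing notes, reads were handled with bcl2fastq 2.20, Trim Galore 0.6.6, HISAT2 2.1.0, SAMtools 1.10 and featureCounts of Subread 2.0.0 on GRCm38. The annotation release, strand setting and allele assignment are not given in the sources used here, and the i4fb columns were taken as the BL6 allele. Genes were filtered with filterByExpr, scaled by TMM and tested with edgeR 4.0.16 (quasi-likelihood, mother strain and age, Benjamini-Hochberg adjusted p under 0.05, R 4.3.3). The SE is the log2 change over the square root of F. CPM values are TMM-scaled, except the raw Drd2 CPM and the allelic values per copy, which are reads over the library total. Allelic counts were fitted with mouse as a block, for genes with at least 10 mean allelic reads. DESeq2 1.42.0, limma 3.58.1, other scalings, filters and Drd2 limits, and each library left out were alternatives. The fit was also run on simulated counts that held no tissue differences between libraries, and the outcome is not given here. The text names all called genes, 12 further genes of at least 1 CPM by smallest p, up to 4 per list by smallest p, and up to 5 per interaction or allele term. A gene that this rule would name is not reported here.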

Additional observations from a re-analysis of the deposited data

Results flagged for a closer look

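In 88 groups of 4 kept libraries, 7 had 1 library far from the other 3 by Dixon's test, which finds about 1 group in 20 by chance. Cxadr was 14.21 CPM in old replicate 5, against 9.89 to 10.4 CPM in the other old libraries, and Spag6 was 7.397 CPM there, against 5.61 to 5.85 CPM. The lymphocyte marker sum was 3.411 CPM in old replicate 5, against 1.16 to 1.40 CPM, and 0.9242 CPM in young replicate 5, against 3.65 to 4.17 CPM in the other young libraries. The pericyte and smooth muscle sum was 243.4 CPM in young replicate 5, against 119 to 128 CPM. The choroid plexus sum was 1086 CPM in old replicate 2, against 30.0 to 132 CPM, and the thalamic sum was 1044 CPM in young replicate 1, against 201 to 240 CPM. The part of these libraries' tissue makeup in single genes was not tested.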

How the results depend on the processing

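With 15 genes called in edgeR (12 higher, 3 lower), counts were 104 with all 11 libraries, 77 with the striatal marker mean added there, 28 with Drd2 under 40 CPM, 83 with no filter on low counts (37 higher, 46 lower), 9 at a mean of at least 1 CPM, 224 with DESeq2 (111 higher, 113 lower), 34 without mother strain, 4 with Ttr as a term, 9 without both young libraries low in CA1 markers and 1 with the CA1 marker sum as a term. The last 2 were chosen after seeing the data. Leaving out single libraries gave 0 to 22 calls. The cause of these moves was not tested. Called list members numbered 7, with 4 at a mean of at least 1 CPM, 28 with all 11 libraries, 4 without both low-CA1 young libraries and 0 to 9 without single libraries. The interaction had 0 calls in edgeR and 4 with DESeq2. Age on the BL6 allele had 22 calls (19 to 151 without single libraries). Age on the maternal allele had 13, with 8 in DESeq2 and 8 to 20 without single libraries. The allelic fit without old replicate 4 was not run, since its terms cannot then be separated. The called genes kept their direction in every alternative in which they were tested, 11 of the 15 at a mean of at least 1 CPM. Some other differences changed sign. With the CA1 sum as a term, Grik1 went from -0.70 to 0.00045 and Cd74 from 0.87 to -0.17. Gadd45a went from -0.20 to 0.14 and Smug1 from -0.02 to 0.0074 in that fit. Without single libraries, Gadd45g (-0.52 to 0.0053), Tdg (-0.12 to 0.018, with 0.0089 without young replicate 4) and Smug1 (-0.062 to 0.011) changed sign. No paired analysis was possible because the replicate numbers are names given in accession order. Casr, Eomes, Itgax, Fbxw15, Gm42756 and Gm16505 have group means under 2 CPM, and the effect of depth was not tested.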
